A study of Rattus norvegicus with 12 samples.

Results

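Neutrophil alarmin and granule genes were followed in the lung of rats with left heart failure, with and without the mast cell stabilizer ketotifen. The members were 7 genes, taken by symbol: S100a8, S100a9, Lcn2, Mmp8, Mmp9, Csf3r and Cd177. The platform annotation gave 7 probe sets for 6 of them, 2 for Mmp9 and 1 for each of the others, among 31042 probe sets that were not controls. Cd177 had 0 probe sets, by symbol or by Entrez identifier, and has no value here. S100a8, S100a9, Lcn2 and Csf3r passed the filter on low values (3 or more of the 12 lungs with a log2 value of 4 or above), which kept 16536 probe sets. These hold 4 of the 6 measured members, and 9788 of the 14217 gene symbols on the array. Both Mmp9 probe sets and the Mmp8 probe set did not pass it, and their values are given with no test of the main kind.

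Whole lungs of male Sprague-Dawley rats were hybridised to 12 Affymetrix rat genome arrays, 1 lung per array. In the heart failure groups, called CHF in the labels, a clip had been placed on the supracoronary aorta of juvenile rats weighing 91 ± 9 g, and lungs were taken 9 weeks later, when left heart disease with pulmonary hypertension was established. The sham groups had the same operation without the clip. The ketotifen arms received ketotifen fumarate at 1 mg per kg body weight per day in the drinking water from day 1 after surgery, and the placebo arms are described as placebo in the labels and as untreated in the design text. The groups were sham placebo, CHF placebo, sham ketotifen and CHF ketotifen, with 3 lungs in each. All 4 groups were surgically operated rats of 1 strain and sex, so that no unoperated lung was compared. Whole lung holds blood as well as tissue, and in such samples fewer cells of a type and less RNA per cell cannot be told apart.

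Neutrophils store antimicrobial proteins and proteases in granules and release them at sites of injury. S100a8 and S100a9 encode calcium-binding proteins that pair to form calprotectin, an abundant cytosolic protein of neutrophils and monocytes that acts as an alarmin through the receptors Tlr4 and Ager. Lcn2 encodes lipocalin 2, which binds bacterial siderophores and is made by neutrophil precursors and also by epithelial cells and macrophages. Mmp8 and Mmp9 encode neutrophil collagenase and gelatinase B, metalloproteinases of the specific and gelatinase granules, and Mmp9 is made by macrophages too. Csf3r is the receptor for granulocyte colony-stimulating factor, which drives the formation of neutrophils, and Cd177 is a surface protein of a subset of neutrophils. Granule genes are mostly transcribed in the bone marrow, whereas S100a8, S100a9 and Csf3r transcripts are kept in circulating cells.

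Promoter windows are shown for the 4 members whose values take different courses below. RefSeq windows (build GRCr8, 250 bases before to 50 bases after the gene start, 5′ to 3′ on the gene's strand) were found for 5 of the 7 members, S100a9, Lcn2, Mmp8, Csf3r and Cd177. Capitals mark matches to 4 motifs, which do not overlap here: the TATA box TATAAA on the gene's strand, and on both strands the C/EBP motif TTGCNNAA, the PU.1 core GAGGAA and the STAT motif TTCNNNGAA.
S100a9 (chr2:178490573-178490872, - strand): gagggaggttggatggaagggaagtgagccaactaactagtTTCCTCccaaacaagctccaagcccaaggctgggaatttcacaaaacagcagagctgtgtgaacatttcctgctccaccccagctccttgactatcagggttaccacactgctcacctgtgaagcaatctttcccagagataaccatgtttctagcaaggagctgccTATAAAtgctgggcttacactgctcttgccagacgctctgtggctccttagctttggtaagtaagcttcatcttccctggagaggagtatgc
Lcn2 (chr3:36081731-36082030, - strand): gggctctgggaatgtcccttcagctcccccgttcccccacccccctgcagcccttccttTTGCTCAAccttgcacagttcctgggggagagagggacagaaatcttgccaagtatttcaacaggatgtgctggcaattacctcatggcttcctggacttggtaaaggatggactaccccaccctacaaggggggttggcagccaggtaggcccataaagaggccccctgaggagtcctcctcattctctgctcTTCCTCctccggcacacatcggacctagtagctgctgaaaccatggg
Csf3r (chr5:143582970-143583269, + strand): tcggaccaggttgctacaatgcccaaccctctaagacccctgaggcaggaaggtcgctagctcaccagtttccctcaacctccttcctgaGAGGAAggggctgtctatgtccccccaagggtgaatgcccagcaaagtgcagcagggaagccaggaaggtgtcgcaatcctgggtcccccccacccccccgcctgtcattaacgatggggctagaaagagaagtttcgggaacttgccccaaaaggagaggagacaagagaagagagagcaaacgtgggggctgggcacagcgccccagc
Mmp8 (chr8:13008640-13008939, + strand): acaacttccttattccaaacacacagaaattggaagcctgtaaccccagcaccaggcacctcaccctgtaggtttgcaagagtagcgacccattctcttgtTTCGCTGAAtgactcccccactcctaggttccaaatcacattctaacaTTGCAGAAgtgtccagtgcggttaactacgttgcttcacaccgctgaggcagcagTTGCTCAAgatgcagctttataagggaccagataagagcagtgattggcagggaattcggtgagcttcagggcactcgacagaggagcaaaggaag

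S100a9 had a TATA box from base -42 to base -37, which 8.80% of 33469 rat promoter windows of the same length hold, and a PU.1 core at -209, which 27.6% hold. Lcn2 had a C/EBP motif at -191, which 10.6% of windows hold, and a PU.1 core at 4. Mmp8 held 2 C/EBP motifs, at -101 and -46, and a STAT match at -149 (8.87%). Csf3r held a single PU.1 core at -160, and Cd177 a TATA box at -30. These letters are matches only. None of the 4 motifs was found in all 5 windows. S100a8 and S100a9 are neighbours on chromosome 2, with 0 protein-coding genes between them in the RefSeq gene table.

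The arrays were similar in their overall signal, with 15809 to 16056 probe sets at or above 4 in each. Arrays have no read depth, and their number, 3 per group, limits the precision. CHF ketotifen arrays 1 and 3 were the closest pair (SD of the difference 0.26, against 0.40 for the next pair). Calls lost with both averaged into 1 sample are named beside the results of the members. For companion genes they are named once, where the companion lists are introduced. For the cell type markers this check is not given. RNA integrity was read from the beta-actin control, whose 3' minus 5' difference is larger in degraded RNA. It was 4.52 in sham ketotifen lung 2, 4.23 and 3.90 in sham placebo lungs 2 and 3, and 2.90 to 3.45 in the other 9. Cardiomyocyte markers (7 of 7 on the array) averaged 7.01 in sham placebo lung 3, 5.0 and 8.25 in sham ketotifen lungs 1 and 2, and 2.44 to 2.73 in the other 9 lungs.

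The alarmin genes S100a8 and S100a9 were measured well above background in every lung. S100a8 was at 8.17, 6.38 and 8.29 (log2 expression) in sham placebo lungs 1 to 3 and at 6.17, 8.03 and 9.54 in CHF placebo lungs. With ketotifen it was at 8.88, 9.55 and 8.58 in sham lungs and at 10.86, 9.40 and 10.69 in CHF lungs. The lowest lungs were CHF placebo 1 and sham placebo 2, and the highest were CHF ketotifen 1 and 3. S100a9 was at 9.68, 8.10 and 9.82 in sham placebo and at 8.04, 9.76 and 10.87 in CHF placebo lungs. Under ketotifen it was at 10.71, 11.07 and 10.04 in sham and at 12.07, 10.66 and 11.86 in CHF lungs. The same lungs were lowest and highest as for S100a8. Group means of S100a8 were, in rising order, 7.61 (SD 1.07) in sham placebo, 7.92 (SD 1.69) in CHF placebo, 9.00 (SD 0.50) in sham ketotifen and 10.32 (SD 0.79) in CHF ketotifen, n = 3 each. Each group overlapped its neighbour in that order. The CHF placebo group had the widest spread, over 3.37 log2 units for S100a8 and 2.84 for S100a9.

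The S100a8 and S100a9 profiles ran almost in parallel. The S100a9 value minus the S100a8 value of the same lung, which compares courses and not levels, lay between 1.17 and 1.86, while S100a8 itself spanned 4.69 log2 units. The root mean square difference of the profiles, each centred on its own mean over 12 lungs, was 0.23, the smallest among the 15 pairs of the 6 measured members. In the 3 CHF ketotifen lungs the offset was 1.17 to 1.25, below all 9 other lungs, at 1.33 to 1.86. Against CHF placebo the offset differed by -0.43, with an exact permutation p of 0.1 (two-sided, 3 against 3 lungs), the smallest this design allows, and a Benjamini-Hochberg adjusted value of 0.2 over the 16 offset comparisons made.

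**Figure D1:**
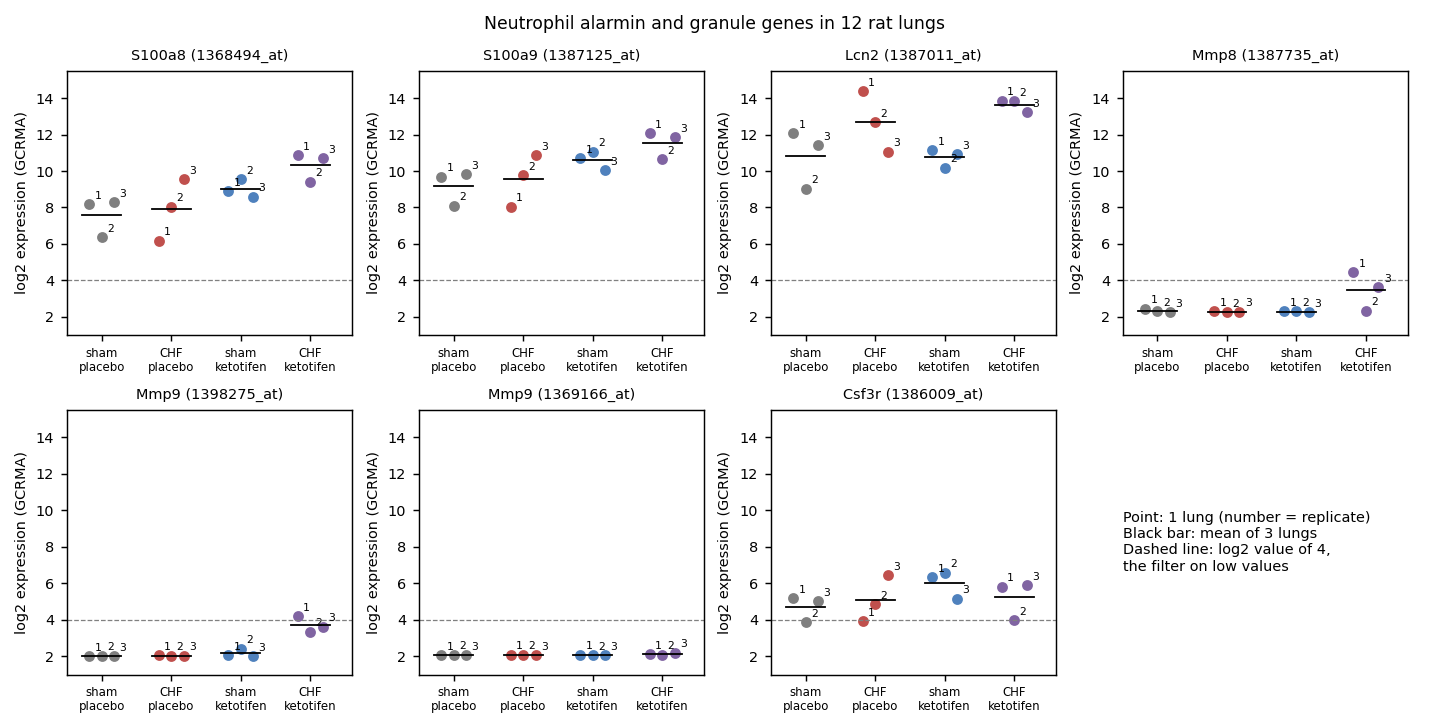
Log2 expression (GCRMA, vertical axis) of the 7 member probe sets in the 4 groups, 1 point per lung with its replicate number, a bar at the mean of 3 lungs and a dashed line at 4, the filter on low values. S100a8 and S100a9 rank the lungs nearly alike, Lcn2 is highest in CHF placebo lung 1 and the CHF ketotifen lungs, and the Mmp8 probe set and 1 Mmp9 probe set leave 2 to 3 only in CHF ketotifen lungs.

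In limma, 0 of the 4 tested members passed for CHF against sham with placebo, where 0.169% of all probe sets were called. S100a8 differed by 0.30 ± 0.77 (log2, moderated SE, adjusted p = 0.864) and S100a9 by 0.36 ± 0.69 (adjusted p = 0.812), and both turned negative without sham placebo lung 2 (-0.31 and -0.19) or CHF placebo lung 3 (-0.51 and -0.30). Without the 3 arrays of lower RNA integrity, which leaves 1 sham placebo lung, assumed to vary like the other groups, both were also negative, at -0.26 and -0.12. At an unadjusted p under 0.05 there was 1 member, Lcn2, against 20.1% of all probe sets. Csf3r was at 0.38 ± 0.70 (adjusted p = 0.798), and at -0.019 and -0.30 when sham placebo lung 2 and, separately, CHF placebo lung 3 were left out. The alarmin differences were smaller than the spread of lungs in the placebo arm, and the 95% interval of S100a8, -1.40 to 2.01, includes changes of more than 1 log2 unit in either direction.

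For ketotifen against placebo in CHF lungs 0 of 4 members passed, with 1.22% of all probe sets called, and 2 members had an unadjusted p under 0.05 (17.1% of all probe sets). These were S100a8, at 2.40 ± 0.77 (5.28-fold, adjusted p = 0.152), and S100a9, at 1.97 ± 0.69 (3.92-fold, adjusted p = 0.181). The groups overlapped for both, through CHF placebo lung 3 and CHF ketotifen lung 2. With CHF ketotifen arrays 1 and 3 averaged they were at 2.17 and 1.75 (adjusted p = 0.316 and 0.353). Without CHF placebo lung 1 the differences were 1.53 and 1.21, and without CHF placebo lung 3 they were 3.21 and 2.63. Csf3r was at 0.16 ± 0.70 in this comparison, and at -0.41 without CHF placebo lung 1. It was also below 0 without CHF ketotifen lung 1 (-0.13) or 3 (-0.17) and with both averaged (-0.15). Lcn2 was at 0.94 ± 0.83. The 4 members had a median difference of 1.45, against -0.04 over all probe sets tested.

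Ketotifen against placebo in sham lungs gave 0 of 4 calls, with 0.0847% of all probe sets called, and 0 members at an unadjusted p under 0.05 (14.0% of all). S100a8 was at 1.39 ± 0.77 and S100a9 at 1.41 ± 0.69 (adjusted p = 0.445 and 0.385). For these 2 genes all sham ketotifen lungs lay above all sham placebo lungs, which held in the higher direction for 7.50% of all probe sets. Without sham placebo lung 2 the differences were 0.77 and 0.86. Csf3r was at 1.33 ± 0.70 with overlapping groups, and Lcn2 at -0.08 ± 0.83, with the sign turned without sham placebo lung 1 (0.53) or 3 (0.21) or sham ketotifen lung 2 (0.20).

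For the interaction, which asks whether the CHF effect differs between the drug arms, 0 of 4 members passed and 0 had an unadjusted p under 0.05, against 0.369% and 10.8% of all probe sets. S100a8 was at 1.01 ± 1.10, Lcn2 at 1.02 ± 1.18, S100a9 at 0.56 ± 0.97 and Csf3r at -1.17 ± 0.98 (adjusted p from 0.690 to 0.869). S100a9 was at -0.20 without CHF placebo lung 1.

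**Figure D2:**
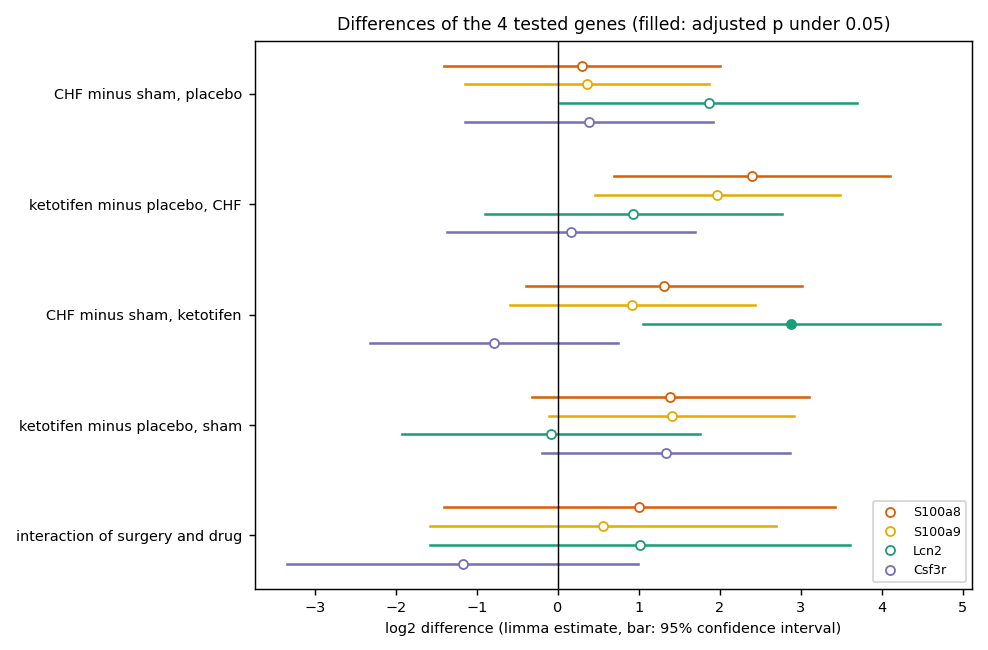
Log2 differences (horizontal axis) of the 4 tested genes in the 5 comparisons, with 95% confidence intervals from limma and a filled point where the adjusted p is under 0.05. The single filled point is Lcn2 for CHF minus sham under ketotifen, at 2.88.

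Csf3r, the receptor gene that marks granulocytes, was dim. It was at 5.17, 3.88 and 5.004 in sham placebo lungs and at 3.92, 4.85 and 6.44 in CHF placebo lungs. With ketotifen it was at 6.33, 6.58 and 5.15 in sham and at 5.81, 3.99 and 5.88 in CHF lungs. It was below 4 in sham placebo lung 2, CHF placebo lung 1 and CHF ketotifen lung 2, where such arrays flatten. The order of group means was sham placebo 4.68 (SD 0.70), CHF placebo 5.07 (SD 1.27), CHF ketotifen 5.23 (SD 1.07) and sham ketotifen 6.02 (SD 0.76), with overlap between neighbours. For CHF against sham under ketotifen it was at -0.79 ± 0.70 (adjusted p = 0.467, 95% interval -2.32 to 0.74), and without CHF ketotifen lung 2 at -0.17.

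The distance between S100a8 and Csf3r was wider in the CHF ketotifen lungs than in the other 9. The S100a8 value minus the Csf3r value of the same lung lay between 2.25 and 3.43 in the 9 lungs of the other groups and was 5.05, 5.41 and 4.80 in CHF ketotifen lungs. The groups did not overlap, in either comparison that uses the CHF ketotifen lungs, which both share. The offset was higher by 2.24 than in CHF placebo lungs (5.09, SD 0.31, against 2.85, SD 0.52) and by 2.10 than in sham ketotifen lungs (2.99, SD 0.44). Each had an exact permutation p of 0.1 (two-sided, the smallest for 3 against 3), adjusted 0.2 over 16. For CHF against sham with placebo the offset differed by -0.08 and for the drug in sham lungs by 0.06 (exact permutation p = 0.8 for each, adjusted 0.9). S100a9 gave the same order, with an offset to Csf3r of 5.97 to 6.67 in CHF ketotifen lungs and 4.12 to 4.91 elsewhere. These offsets were chosen after the values were seen. Csf3r was below 4 in sham placebo lung 2, CHF placebo lung 1 and CHF ketotifen lung 2, so that the lowest and the highest offset (2.25 and 5.41) rest on flattened values and their size is uncertain. Leaving out each lung in turn gave 1.94 to 2.41 against CHF placebo and 1.88 to 2.32 against sham ketotifen, and averaging CHF ketotifen arrays 1 and 3 gave 2.32 and 2.18.

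**Figure D3:**
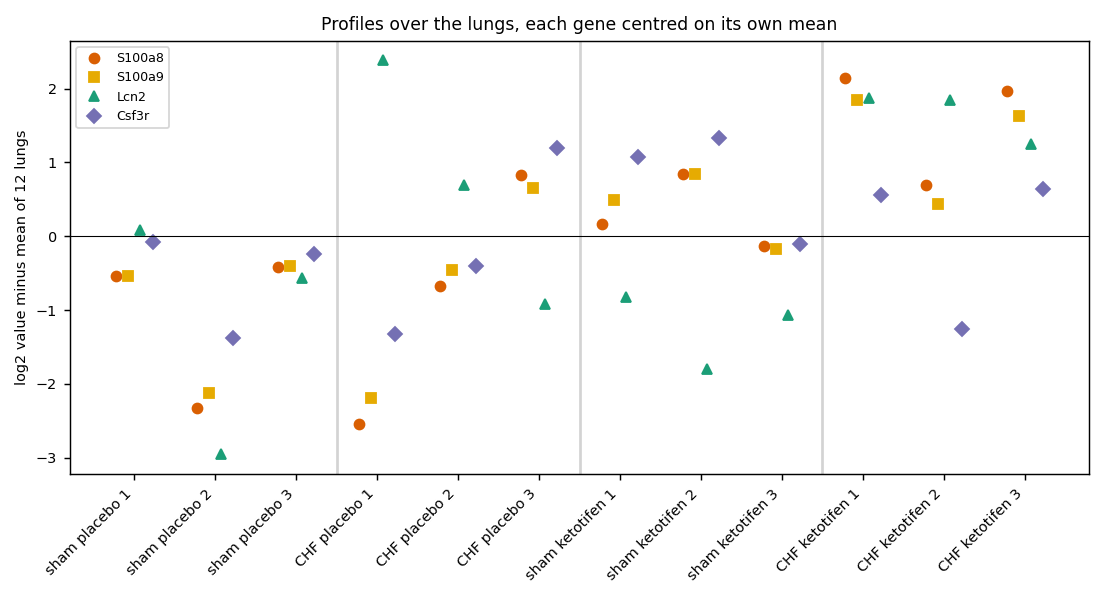
Log2 values of S100a8, S100a9, Lcn2 and Csf3r minus each gene's mean over the 12 lungs (vertical axis) for each lung (horizontal axis). S100a8 and S100a9 lie together in every lung, Csf3r lies above S100a8 in 9 lungs and below it in the 3 CHF ketotifen lungs, and Lcn2 departs from them most in CHF placebo lung 1.

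**Figure D4:**
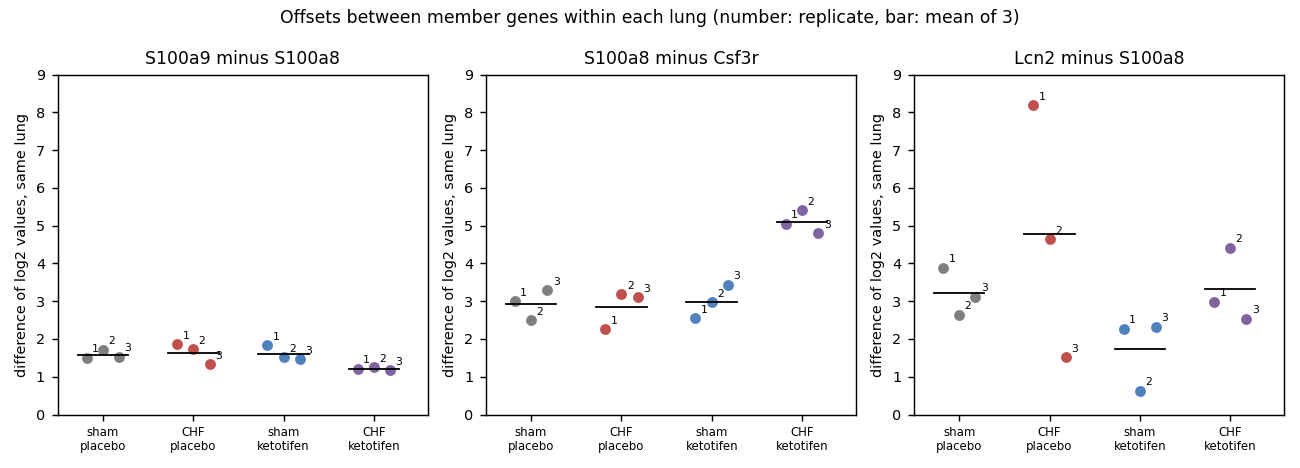
Differences of log2 values between pairs of member genes in the same lung (vertical axis) by group, with replicate numbers and a bar at the mean of 3. The S100a8 minus Csf3r offset is 4.80 to 5.41 in CHF ketotifen lungs and 2.25 to 3.43 in the other 9, and the Lcn2 minus S100a8 offset ranges from 0.63 to 8.18.

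Lcn2 was the 1 tested member called, for CHF against sham under ketotifen. It was at 11.15, 10.18 and 10.91 in sham ketotifen lungs and at 13.85, 13.82 and 13.23 in CHF ketotifen lungs. In the placebo arm it was at 12.06, 9.02 and 11.41 in sham and at 14.36, 12.67 and 11.06 in CHF lungs. The ketotifen groups lay apart, and the placebo groups overlapped. Under ketotifen Lcn2 rose by 2.88 ± 0.83 (7.38-fold, n = 3 per group, limma adjusted p = 0.0448, 95% interval 1.05 to 4.72). It was 1 of 4 members called, in the higher direction, as were 6.36% of all probe sets, and 1 of 4 at an unadjusted p under 0.05 (31.1% of all). The higher direction without overlap held for 19.2% of all probe sets. The alarmin genes did not pass in this comparison, with S100a8 at 1.31 ± 0.77 (adjusted p = 0.273, 95% interval -0.40 to 3.02) and S100a9 at 0.92 ± 0.69 (adjusted p = 0.385). Their groups overlapped through CHF ketotifen lung 2. The median of the 4 members was 1.12, against -0.03 over all probe sets.

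The Lcn2 call was close to the threshold. It was lost in 8 of the 12 fits that left out 1 lung, where the difference stayed between 2.60 and 3.09 and the adjusted p between 0.0209 and 0.124. Each lung of the 2 groups compared ended the call when left out, as did sham placebo lung 3 and CHF placebo lung 2. The call was also lost with CHF ketotifen arrays 1 and 3 averaged (2.93, adjusted p = 0.0951), without the 3 arrays of lower RNA integrity (2.60, adjusted p = 0.0813) and with no filter (adjusted p = 0.0982). Fitted on the 6 ketotifen lungs alone the adjusted p was 0.00237. In the placebo arm Lcn2 was at 1.87 ± 0.83 (3.64-fold, adjusted p = 0.243, 95% interval 0.03 to 3.70), at 0.96 without sham placebo lung 2 and at 2.68 without CHF placebo lung 3. It was at 0.63 without the 3 arrays of lower RNA integrity, where sham placebo is 1 lung. The difference of the CHF effects between the arms, 1.02 ± 1.18, did not pass (adjusted p = 0.790).

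Lcn2 and the alarmin genes did not rank the lungs alike. CHF placebo lung 1 had the highest Lcn2 value of all 12 lungs, 14.36, and the lowest S100a8 value, 6.17. CHF placebo lung 3 had the lowest Lcn2 value and the highest S100a8 value of its group. The Lcn2 minus S100a8 offset was 8.18, 4.64 and 1.52 in the CHF placebo lungs, and ranged from 0.63 to 8.18 over all lungs. It differed by 1.57 between CHF and sham lungs under ketotifen and by -1.47 between ketotifen and placebo in sham lungs (exact permutation p = 0.1 for each, adjusted 0.2). The centred Lcn2 profile had a root mean square difference of 1.84 from S100a8 and 2.00 from Csf3r.

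Macrophage, airway epithelial, red cell and mast cell markers were read beside Lcn2. Of 10 macrophage markers 9 were on the array, and all 9 reached 4 in some lung. They averaged 6.01 to 7.61 in sham placebo, 7.91 to 9.02 in CHF placebo, 7.30 to 7.31 in sham ketotifen and 9.06 to 9.52 in CHF ketotifen lungs. CHF placebo lung 1 was at the top of its group and sham placebo lung 2 at the bottom of its own, as for Lcn2. Monocyte markers had the same lungs there (5.26 and 4.77). The opposite ends did not match. Macrophage markers were lowest in CHF placebo lung 2 (7.91) and highest in sham placebo lung 3 (7.61). Lcn2 was lowest in CHF placebo lung 3 and highest in sham placebo lung 1 within these groups. For CHF against sham under ketotifen 6 of the 9 macrophage markers were called higher (6.36% of all probe sets), and with placebo 0 of 9 were called (0.169% of all). At an unadjusted p under 0.05 there were 8 of 9 under ketotifen (31.1% of all) and 7 of 9 with placebo (20.1% of all). Their median differences were 1.96 and 1.34. For the interaction 0 of 9 were called (0.369% of all). Airway epithelial markers (6 of 7 on the array, with Muc5ac at background in every lung) averaged 6.06 to 10.14 in sham placebo, 6.08 to 7.30 in CHF placebo, 6.14 to 8.20 in sham ketotifen and 5.62 to 6.20 in CHF ketotifen lungs. Of 5 tested, 1 was called for CHF under ketotifen, Cyp2f4, at -3.99 ± 1.13 (adjusted p = 0.0421). In that comparison 2145 of 16536 probe sets were called in either direction. With placebo 0 of 5 were called (0.169% of all). All 5 were lower there, 2 of them at an unadjusted p under 0.05 (20.1% of all). Red cell markers (4 of 6 on the array, with Slc4a1 and Ahsp below 4 in every lung) averaged 3.90 to 4.46 in sham placebo, 5.5 to 7.52 in CHF placebo, 4.49 to 5.27 in sham ketotifen and 5.84 to 6.04 in CHF ketotifen lungs. Hbb, a haemoglobin chain, rose with CHF in both arms, by 5.34 ± 0.64 with placebo (adjusted p = 0.0144) and by 2.59 ± 0.64 under ketotifen (adjusted p = 0.0270). Mast cell markers (8 of 8 on the array) averaged 3.25 to 4.20, 5.51 to 7.08, 4.54 to 5.14 and 5.22 to 6.40 in the same order of groups. Of 7 tested, 4 were called higher with CHF in the placebo arm (0.169% of all probe sets called) and 2, Cma1 and Fcer1a, under ketotifen (6.36% called higher). The part of these cell types in the values of Lcn2 and the other neutrophil genes was not tested.

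The collagenase gene Mmp8 was at background in 10 of 12 lungs. It was at 2.26 to 2.46 in the 9 lungs of the other groups and at 4.46, 2.33 and 3.62 in CHF ketotifen lungs 1 to 3. Thus lungs 1 and 3, the closest pair of arrays, carried its signal, and lung 2 did not. The brighter Mmp9 probe set (1398275_at) was at 1.99 to 2.07 in 8 of those 9 lungs, at 2.41 in sham ketotifen lung 2, and at 4.20, 3.36 and 3.63 in CHF ketotifen lungs. All 3 CHF ketotifen lungs lay above all others. The other Mmp9 probe set (1369166_at) stayed between 2.05 and 2.19 in all 12 lungs, so that the probe sets of this gene differ in what they detect.

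Mmp8 differed by 1.18 between CHF ketotifen and CHF placebo lungs and by 1.18 from sham ketotifen lungs. The brighter Mmp9 probe set differed by 1.70 and 1.57 in these comparisons, which share the CHF ketotifen lungs. These values start from background, so that their size is uncertain. With no filter, over 31042 probe sets, Mmp9 was called in both (limma adjusted p = 0.00278 and 0.00313), where 0.393% and 2.03% of all probe sets were called higher. Mmp8 was not called there (adjusted p = 0.250 and 0.127). With CHF ketotifen arrays 1 and 3 averaged, Mmp9 was at 1.60 and 1.48 (adjusted p = 0.00338 and 0.00450) and Mmp8 at 0.89 in both (adjusted p = 0.328 and 0.229). Groups apart in the higher direction were seen in 23.9% and 20.0% of all unfiltered probe sets.

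The wider neutrophil programme was read from lists of companion genes, counting each gene by its brighter probe set. Beside the counts below stand the shares of all probe sets, 6.36% called higher for CHF under ketotifen and 1.22% called in either direction for the drug in CHF lungs. With CHF ketotifen arrays 1 and 3 averaged, 15 of the 24 companion calls for CHF under ketotifen held. For the drug in CHF lungs 2 of the 5 held, Il1r2 and Tlr2. These counts include Il1r2 and Padi4, which the filter kept through the CHF ketotifen lungs alone. Both had to differ, so that their calls, and the holding of these, are no support. Apart from Il1r2, the call held for the drug in CHF lungs was that of Tlr2. The averaging check, and the counts without Il1r2, Padi4 and S100pbp below, were added after the values were seen. Those lost were Chi3l1, Cyba, Ptafr, Pilra, Ncf4, Cebpb, Myd88, Ly96 and S100a10 in the former (the highest adjusted p was 0.0795) and Socs3, Timp1 and Mmp2 in the latter (adjusted p = 0.113, 0.0770 and 0.113). On the array the annotation gave 8 of 14 neutrophil markers, and Mpo, Elane, Ltf, Ngp, Mmp25 and Cd177 were not among them. These markers include the members S100a8, S100a9, Mmp8 and Csf3r. Camp, which encodes the cathelicidin of specific granules, Cxcr2, a neutrophil chemokine receptor, and Cebpe, a transcription factor of late granulocyte precursors, were below 4 in every lung. Camp was at 2.47, 3.26 and 2.57 in CHF ketotifen lungs and at 2.06 to 2.32 in the rest. The neutrophil markers averaged 3.68 to 4.31 in sham placebo, 3.72 to 4.79 in CHF placebo, 4.37 to 4.82 in sham ketotifen and 4.83 to 5.77 in CHF ketotifen lungs. The remaining marker on the array was Il1r2, which passed the filter only through the CHF ketotifen lungs. These averages therefore restate the members and Il1r2 and are no separate evidence on the neutrophil programme. Monocyte markers (7 of 8 on the array, with Ccr2 and Cx3cr1 below 4 in every lung) averaged 4.77 to 5.14, 5.03 to 5.26, 5.47 to 5.91 and 5.48 to 6.31 in the same order of groups. Monocytes share S100a8 and S100a9, and their part in these values was not tested.

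Among receptors, Il1r2, the decoy receptor for interleukin 1, was above 4 in the CHF ketotifen lungs and in no other lung. It was at 5.66, 4.62 and 5.54 in CHF ketotifen lungs and at 2.28 to 2.72 in the other 9. It passed the filter only through the CHF ketotifen lungs and so had to differ. Its differences, 2.62 against CHF placebo and 2.71 against sham ketotifen lungs, start from background, so that their size is uncertain, and they are a description with no test. Of the other 10 receptor and adhesion genes tested, 0 were called with ketotifen in CHF lungs (1.22% of all probe sets called, median of the 10 0.59), and 3 rose with CHF under ketotifen (6.36% of all probe sets, median 1.21, against -0.03 over all probe sets). For CHF with placebo 0 of the 10 were called higher (0.169% of all probe sets called), and their median was 1.30, against 0.02 over all probe sets.

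Cxcr1, a receptor for neutrophil chemokines, took another course. It was at 5.64, 2.75 and 2.72 in sham placebo and at 7.98, 6.01 and 6.06 in CHF placebo lungs. Under ketotifen it was at 2.92, 2.96 and 5.0 in sham and at 7.53, 7.98 and 7.32 in CHF lungs. CHF placebo lung 1, lowest for S100a8, was the highest of its group for Cxcr1. It rose with CHF under ketotifen by 3.98 ± 0.84 (adjusted p = 0.0155), while in the placebo arm it was at 2.98 ± 0.84 (adjusted p = 0.121). The interaction, 1.00 ± 1.18, did not pass (adjusted p = 0.793). Cxcr1 was near background in sham placebo lungs 2 and 3 and sham ketotifen lungs 1 and 2, so that the size of these differences is uncertain. Ptafr, the receptor for platelet-activating factor, and Pilra, an inhibitory receptor of myeloid cells, also rose under ketotifen, by 1.11 and 2.02 (adjusted p = 0.0255 and 0.0310).

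Of the oxidase and effector genes tested, 4 of 10 were called higher with CHF under ketotifen (6.36% of all probe sets), or 3 of 9 without Padi4, which reached 4 in the CHF ketotifen lungs alone and so had to differ. In the other 4 comparisons 0 were called, where the share of all probe sets was 0.0847% to 1.22%. Those that rose were Sod2, mitochondrial superoxide dismutase (1.54 ± 0.26, adjusted p = 0.00726), and the oxidase subunits Ncf1 (1.30 ± 0.28, adjusted p = 0.0169) and Ncf4 (1.26 ± 0.35, adjusted p = 0.0410). Padi4, which citrullinates histones in neutrophils, differed by 1.32 from a level at background. For CHF under ketotifen the median of the 9 genes without Padi4 was 1.02. It was 1.14 for CHF with placebo and 0.78 for the drug in CHF lungs. Over all probe sets the medians were -0.03, 0.02 and -0.04 in that order.

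Granule genes outside the members gave mixed results for CHF under ketotifen. Arg1, arginase, rose by 2.90 ± 0.61, Chi3l1, a chitinase-like glycoprotein, by 2.25 ± 0.56 and Cyba, an oxidase subunit, by 1.72 ± 0.46 (adjusted p from 0.0155 to 0.0343). Ceacam1, an adhesion molecule, fell by 1.62 ± 0.33 (adjusted p = 0.0148). In the placebo arm Arg1 was at 2.67 ± 0.61 and Cyba at 1.89 ± 0.46 (adjusted p = 0.0968 and 0.102). There Chi3l1 was at 0.81 ± 0.56 and Ceacam1 at -0.39 ± 0.33 (adjusted p = 0.446 and 0.547). The interaction passed for none of the genes named here (adjusted p from 0.392 to 0.950). The following counts are for CHF under ketotifen. The 4 genes were 3 higher (6.36% of all probe sets) and 1 lower of 7 tested in the specific and gelatinase list (median 1.57), and macrophages or epithelial cells also express each of them. In the azurophil list 3 of 9 genes were on the array, and Cd63, a granule membrane tetraspanin of many cell types, rose by 1.02 ± 0.20 (adjusted p = 0.0122). With placebo Cd63 was at 0.71 ± 0.20 (adjusted p = 0.122).

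The ligand of Csf3r, Csf3, stayed near background. It was at 2.14 to 2.24 in all 12 lungs. Socs3, which is induced through Csf3r and the interleukin 6 receptors, rose with ketotifen in CHF lungs by 2.14 ± 0.41 (adjusted p = 0.0344) and with CHF under ketotifen by 3.14 ± 0.41 (adjusted p = 0.00223). It was at 2.13 ± 0.41 for CHF with placebo and at 1.13 ± 0.41 for the drug in sham lungs (adjusted p = 0.0725 and 0.293). The Socs3 interaction, 1.01 ± 0.58, did not pass (adjusted p = 0.561). In the granulopoiesis list 1 of 8 genes rose for the drug in CHF lungs (1.22% of all probe sets called) and 3 of 8 for CHF under ketotifen (6.36% called higher). The others in the second were Runx1 and Cebpb, transcription factor genes, at 0.84 and 0.80 (adjusted p = 0.0155 and 0.0315). Cebpd was at 0.06 ± 0.26 for the drug in CHF lungs.

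**Figure D5:**
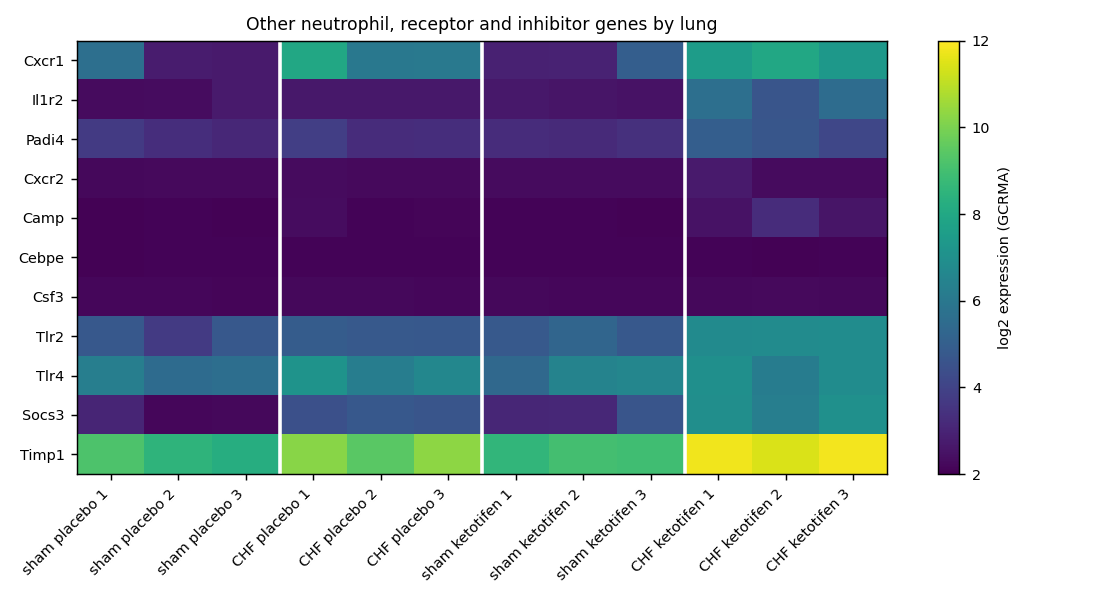
Log2 expression (GCRMA, colour) of 11 neutrophil, receptor, signalling and inhibitor genes (rows) in the 12 lungs (columns, groups parted by white lines). Il1r2 is above 4 only in CHF ketotifen lungs, Cxcr1 is high in all CHF lungs, and Cxcr2, Camp, Cebpe and Csf3 stay below 4 throughout.

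Receptors for calprotectin differed among themselves. Tlr4 was at 0.01 ± 0.37 for the drug in CHF lungs and at 0.52 ± 0.37 for CHF under ketotifen (adjusted p = 0.994 and 0.352), and Ager, abundant on alveolar type 1 cells, was at -0.36 ± 0.42 and -0.70 ± 0.42 (adjusted p = 0.707 and 0.277). Bsg, a receptor for S100a9, was at -0.14 and 0.06, and the lipocalin receptor Slc22a17 at -0.23 and 0.10 (adjusted p from 0.645 to 0.898). Lrp2, of the same list, was at 0.33 and 0.41 (adjusted p = 0.505 and 0.253). Pecam1, listed as a partner of Cd177, was at 0.25 and -0.15 (adjusted p = 0.523 and 0.611). For CHF with placebo Pecam1 was at -0.62 ± 0.19 (adjusted p = 0.130). Tlr2 rose by 2.01 ± 0.27 with the drug in CHF lungs (adjusted p = 0.00434), from 4.77 to 4.90 in CHF placebo lungs to 6.80 to 6.85 in CHF ketotifen lungs. Of the 11 receptor and signalling genes 1 rose in that comparison (1.22% of all probe sets called), and 5 rose with CHF under ketotifen (6.36% called higher, median 0.52). Those were Tlr2, the Tlr4 partners Cd14 (1.60 ± 0.29) and Ly96 (1.23 ± 0.29), the adaptor Myd88 (0.65 ± 0.14) and the scavenger receptor Cd36 (1.11 ± 0.18), with adjusted p from 0.00331 to 0.0220. For CHF with placebo these 5 were at 0.40, 0.41, 1.04, 0.26 and 0.93 in that order (adjusted p from 0.0705 to 0.444). The interaction passed for none of the 5 (adjusted p from 0.175, for Tlr2, to 0.907).

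The inhibitor of the granule metalloproteinases rose in both comparisons that use the CHF ketotifen lungs. Timp1, which binds Mmp9 and Mmp8, was at 9.21, 8.51 and 8.22 in sham placebo, 10.22, 9.45 and 10.32 in CHF placebo, 8.59, 9.01 and 8.95 in sham ketotifen and 11.80, 11.42 and 11.83 in CHF ketotifen lungs. It rose by 2.83 ± 0.28 with CHF under ketotifen (adjusted p = 0.000453) and by 1.69 ± 0.28 with the drug in CHF lungs (adjusted p = 0.0157). In the placebo arm it was at 1.35 ± 0.28 (adjusted p = 0.0824). The Timp1 interaction, 1.48 ± 0.40, did not pass (adjusted p = 0.201). Timp2 was at 0.37 and 0.09 in the first 2 of these comparisons. Of 9 inhibitor and other metalloproteinase genes tested 2 rose in each (6.36% of all probe sets higher with CHF under ketotifen, 1.22% called for the drug in CHF lungs), Timp1 with Mmp14, which encodes a membrane-bound metalloproteinase, under ketotifen (1.11, adjusted p = 0.0169, while a dimmer probe set gave 0.50, adjusted p = 0.253) and Timp1 with Mmp2, gelatinase A, for the drug in CHF lungs (0.86, adjusted p = 0.0331). Mmp3, Mmp7, Mmp10 and Mmp13 were below 4 in every lung.

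The S100 genes other than the alarmins had list medians near 0 for the drug in CHF lungs and for CHF under ketotifen, but not for CHF with placebo. Of 12 listed, 10 were tested, and 1 of these, S100pbp, encodes a binding partner and not an S100 protein. The 10 had a median of -0.02 for the drug in CHF lungs and -0.10 for CHF under ketotifen, and the 9 without S100pbp 0.0021 and 0.07. For CHF with placebo the medians were 0.36 for the 10 and 0.52 for the 9. There 5 of the 10 had an unadjusted p under 0.05 (20.1% of all probe sets), all higher but S100b (-1.51 ± 0.65). S100a10, a partner of annexin A2, was the 1 called, at 0.86 ± 0.22 for CHF under ketotifen (adjusted p = 0.0330). In the placebo arm, and for the drug in sham lungs, limma called 0 genes in each of these companion lists (0.169% and 0.0847% of all probe sets). At an unadjusted p under 0.05 there were 9 of 11 receptor genes and 8 of 10 oxidase genes for CHF with placebo, against 20.1% of all probe sets, and 1 of 11 and 3 of 10 for the drug in sham lungs, against 14.0%. All of these were higher but Cd24, a receptor list gene, which was lower for CHF with placebo (-1.53 ± 0.64). Il1r2 and Padi4 are in the 11 and the 10, and were above 0.05 in both comparisons.

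The genes whose profile was nearest to a member over the 12 lungs were named by the root mean square difference of centred log2 values, a description that shares all arrays. For S100a8, whose own root mean square deviation was 1.39, the nearest genes that are no members were Stfa2l2, a stefin of the cystatin family (0.47), the interferon-induced Ifit3 (0.55), Lypd8l1 (0.74), the early lymphocyte activation marker Cd69 (0.86) and Phlda1 (0.86). Stfa2l2 was at 7.90, 5.46 and 7.11 in CHF ketotifen lungs and at 3.08 in sham placebo lung 2 and 3.34 in CHF placebo lung 1, the lowest lungs, as for S100a8. For Csf3r (0.94) the nearest were Plac8 (0.44), Tesc (0.44), Ifgga2l1 (0.44), Mnda, a nuclear antigen of myeloid cells (0.46), and Klrd1, a natural killer cell receptor (0.46). For Mmp8 (0.67) they were the glucose transporter Slc2a3 (0.14), the mast cell receptor gene Milr1 (0.33), Trim59, Fstl1 and Emp1 (0.35 each). Slc2a3 was at 6.13 and 5.82 in CHF ketotifen lungs 1 and 3, and at 4.35 to 4.48 in the other 10. For Lcn2 (1.57), added after the values were seen, they were Cpxm2 (0.53), Pilrb2l4 (0.54), Ttyh2 (0.61), Akr1b8 (0.62) and the macrophage glycoprotein gene Gpnmb (0.63). No gene stood in more than 1 of these 4 groups.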

How the data were processed

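Values were the log2 expression values per probe set that the authors deposited, computed by GCRMA under R 2.5.0 (named in the submitters' processing notes). That method models and removes background, normalizes across arrays and combines probes. Further settings: not given in the sources used here. Per the labels' protocols, 3 µg of RNA per lung was labelled. Values flatten near 2 to 4, so that differences from background have an uncertain size. The labels name separate rats only through the design text, so that p-values measure the spread between these samples.

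Groups came from the source names in the labels. Of 31099 probe sets 57 controls were left out. Of the other 31042 probe sets, 20826 had 1 symbol, 436 several and 9780 none in the platform annotation. limma 3.58.1 in R 4.3.3 fitted 4 group means to all 12 arrays (8 residual degrees of freedom, eBayes with intensity trend, two-sided), over 16536 probe sets with a log2 value of at least 4 in at least 3 arrays. A call means a p-value under 0.05 after Benjamini-Hochberg adjustment over all of them. Intervals are 95% intervals of that fit. The fit was tested on simulated data. Offsets between genes were compared by exact permutation.

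The members and lists were chosen with earlier results of these data known. Named were all members, their ligands, receptors and inhibitors, the 4 called genes of smallest p per list and comparison, and the 5 nearest profiles. Cd36 and Lrp2 are named as further genes of their list. Cd24, S100b and Cyp2f4 were named for their direction, after the values were seen. Alternatives were another or no filter, no trend, only the compared groups, a replicate block, quantile normalization, averaged or left-out arrays.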

Additional observations from a re-analysis of the deposited data

How the results depend on the processing

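The counts of called members were 0, 0, 1, 0 and 0 for CHF with placebo, the drug in CHF, CHF under ketotifen, the drug in sham and the interaction. The count for the drug in CHF became 1 (Mmp9) with no filter. For CHF under ketotifen it became 0 with CHF ketotifen arrays 1 and 3 averaged and without the 3 arrays of lower RNA integrity, and was 0 to 1 without single lungs. With no filter it was also 1, from Mmp9 in place of Lcn2. Single lungs left out kept the other counts at 0. Over all probe sets the counts in that order were 28, 201, 2145, 14 and 61, and without single lungs they ran from 0 to 1496, 72 to 1219, 766 to 2773, 4 to 722 and 21 to 303. With no filter they were 9 for CHF with placebo, 1156 for CHF under ketotifen and 36 for the interaction. With only the groups compared they were 0 for CHF with placebo, 60 for the drug in CHF and 2 for the drug in sham. With arrays 1 and 3 averaged they were 6, 88, 953, 8 and 28. Without the arrays of lower RNA integrity, which leaves 1 sham placebo lung, assumed to vary like the other groups, they were 0 for CHF with placebo, 984 for CHF under ketotifen, 0 for the drug in sham and 2 for the interaction. The floor of 6 gave 7 for the drug in sham. The titles' replicate numbers did not pair the lungs (correlations of same-numbered deviations from -0.35 to 0.26), and with the replicate block the counts were 6 for the drug in sham and 37 for the interaction, while Lcn2 kept its call (adjusted p = 0.0351). Values that changed sign without the arrays of lower RNA integrity were S100a8 (-0.26), S100a9 (-0.12) and Csf3r (-0.10) for CHF with placebo, and with averaged arrays Csf3r for the drug in CHF (-0.15). Without single lungs the ranges that crossed 0 were -0.51 to 1.17 for S100a8, -0.30 to 1.12 for S100a9 and -0.30 to 0.96 for Csf3r for CHF with placebo, -0.41 to 0.85 for Csf3r for the drug in CHF, -0.99 to 0.53 for Lcn2 for the drug in sham and -0.20 to 1.22 for S100a9 in the interaction. The causes were not tested.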
